A study of Homo sapiens with 4 samples.

Results

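The genes described here are 10 secreted or membrane-anchored growth factors that cancer cells can make for themselves. They are the EGF-family ligands AREG, EREG, HBEGF, TGFA, BTC and NRG1, and the factors FGF2, PDGFA, VEGFC and CSF1. They were taken by gene name from a table of 60544 genes, all 10 were found once, and 9 passed the filter on low counts. NRG1 did not. The list was drawn up with earlier results of these data known. The RNA came from PC3, an established human prostate cancer line grown in RPMI-1640 with fetal bovine serum, and was selected for poly(A) before sequencing. The series compares METTL3 knockdown with control. The control libraries carry the label shNC (2 replicates) and the other libraries the label sh812 (2 replicates), which was read as the knockdown because no other label exists. The labels do not give the vector, the time after transduction, or whether cells were pooled or cloned. They also do not say that replicates were separate cultures, so p-values measure the spread between these libraries, which may be technical.

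EGF-family ligands are made as membrane precursors. Metalloproteases of the ADAM group release them, and the freed ligand binds receptors of the ERBB family on the same or a neighbouring cell. AREG, TGFA, EREG, BTC and HBEGF bind EGFR, and BTC, HBEGF and EREG also bind ERBB4. NRG1 binds ERBB3 and ERBB4. Such ligands have been studied in androgen-independent prostate cancer lines as autocrine signals, meaning signals that a cell sends to its own receptors. METTL3 is the enzyme that places most N6-methyladenosine, a methyl mark on adenosines within messenger RNA.

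Total counts ran from 31450648 to 37041330 per library. Levels are given as CPM, the usual depth-scaled count, with TMM scaling between libraries (a trimmed mean over genes), and each log2 fold change is sh812 over shNC with its standard error (SE). A gene was called, and is said to have risen or fallen, at an adjusted p under 0.05. METTL3 had 1682 and 1379 counts in shNC and 269 and 313 in sh812, and the log2 fold change was -2.42 (SE 0.11). The quasi-likelihood F test of edgeR, with p-values adjusted by the Benjamini-Hochberg method over all genes tested, gave 5.54e-14. TOX4 overlaps METTL3 on the opposite strand. The epithelial markers KRT8, KRT18 and EPCAM were abundant, and the last 2 were called higher in sh812 (log2 fold change 0.30 and 0.45, adjusted p = 0.00793 and 0.000128 in edgeR), while the prostate secretory gene KLK3 had 0 counts in all 4 libraries. Among 8 markers of other cell types, CD3E had 0 counts throughout, and VWF had at most 2 in a library. The summed level of the 8 ran from 66.6 to 67.3 CPM in shNC and from 66.5 to 78.9 CPM in sh812. PECAM1, an endothelial and platelet adhesion gene, was the called gene among them, with a log2 fold change of 0.59 (adjusted p = 0.000222 in edgeR). Its part in the results was not tested.

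AREG and TGFA rose in sh812, and the change in the other 7 growth factors tested did not pass the threshold. AREG was 1.68-fold higher and TGFA 1.24-fold higher. Thus 2 of the 9 tested were called, both upward, beside 10.8% of all 16802 genes tested (5.43% called upward and 5.42% downward). The fitted change was above 0 in 7 of the 9, against 49.0% of all genes tested. The median log2 fold change of the 9 was 0.17, against -0.0056 for all genes tested. Because the growth factors were chosen with earlier results of these data known, these comparisons with all genes are descriptions and not tests. With 5 housekeeping genes as the scale, the median change of all genes was lowered to -0.20. The log2 values on that scale were 0.55 for AREG, 0.52 for EREG, 0.12 for TGFA and 0.14 for BTC. They were -0.02 for VEGFC, -0.27 for HBEGF, -0.19 for FGF2, -0.14 for PDGFA and -0.33 for CSF1. VEGFC, FGF2 and PDGFA thus changed sign, so the number of genes above 0 depends on the scaling. In bulk RNA, fewer cells of a kind and less RNA per cell cannot be told apart.

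AREG encodes amphiregulin, an EGFR ligand that needs cleavage by ADAM17. It lies on chromosome 4 from 74445134 to 74455009 (GENCODE 29, plus strand). Its level was 16.6 and 14.0 CPM in shNC replicates 1 and 2 and 27.3 and 24.2 CPM in sh812 replicates 1 and 2. Both sh812 libraries lay well above both shNC libraries, and in each group replicate 1 was the higher. The means were 15.3 ± 1.86 and 25.8 ± 2.23 CPM (SD, n = 2). The log2 fold change was 0.75 (SE 0.11), a 1.68-fold difference with a 95% interval of 1.43 to 1.97 (adjusted p = 8.47e-05 in edgeR). Its p-value ranked 123 among all genes tested.

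EREG, which encodes epiregulin, lies upstream of AREG, with its start site at -79.99 kb from that of AREG. It was a scarce transcript, at 55 and 40 counts in shNC and 92 and 66 in sh812. That is 1.45 and 1.26 CPM against 2.62 and 1.84 CPM. The groups did not overlap, and the sh812 libraries were themselves apart by 0.51 on the log2 scale. The log2 fold change of 0.71 was close to that of AREG, but its SE was 0.32, its 95% interval ran from 1.03-fold to 2.60-fold, and its adjusted p was 0.167 in edgeR. The depth here leaves the size of the EREG difference uncertain.

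The promoters of these neighbouring genes are shown because both genes had fitted changes of similar size. Each sequence is the 250 bases before the RefSeq start site on the plus strand of GRCh38.p14, at chr4:74444886-74445135 for AREG and chr4:74364895-74365144 for EREG. Capitals mark TATAAA (the TATA box, searched on the sense strand) and TGACGTCA (the full cAMP response element, which reads the same on both strands).
AREG: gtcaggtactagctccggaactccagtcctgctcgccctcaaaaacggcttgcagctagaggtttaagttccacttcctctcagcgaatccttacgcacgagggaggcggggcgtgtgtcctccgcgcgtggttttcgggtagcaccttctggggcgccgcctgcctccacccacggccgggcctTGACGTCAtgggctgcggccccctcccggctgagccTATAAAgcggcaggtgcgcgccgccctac
EREG: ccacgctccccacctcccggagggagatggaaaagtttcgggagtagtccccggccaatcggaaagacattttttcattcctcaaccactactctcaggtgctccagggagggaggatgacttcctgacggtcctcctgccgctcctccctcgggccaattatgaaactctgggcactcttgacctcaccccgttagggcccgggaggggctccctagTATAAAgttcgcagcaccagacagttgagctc
Counted from the start site, TATAAA began at position -29 in AREG and at -32 in EREG. Of the 8 growth factors with a promoter in the table, these 2 held it, whereas it occurred in 7.33% of all 35116 promoters of the same 300 bases (250 before and 50 after the start). The cAMP response element, at position -65, was found in AREG alone of the 8 and in 1.85% of all promoters. The GC box letters GGGCGG, on either strand, occurred in 7 of the 8 (any of their promoters, TGFA and PDGFA having more than 1) and in 45% of all. EREG was the member without it. Neither the AP-1 letters TGACTCA nor the EGR1 letters GCGTGGGCG, on either strand, were present in any of the 8, against 4.95% and 0.795% of all promoters. No motif match overlapped another of those marked. A match is a description of letters and not of binding.

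BTC and EPGN lie in the same stretch of chromosome 4, and the 4 ligand genes from EPGN to BTC span 486 kb. BTC encodes betacellulin, a ligand of EGFR and ERBB4. It stood at 10.0 and 7.81 CPM in shNC and 11.9 and 10.7 CPM in sh812. The sh812 libraries were above the shNC libraries, though the lower of them exceeded shNC replicate 1 by little. The log2 fold change was 0.33 (SE 0.14, 95% interval 1.03-fold to 1.55-fold, adjusted p = 0.144 in edgeR). Without shNC replicate 1 it was 0.53 with an adjusted p of 0.0196, so shNC replicate 1 decided the call.

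EPGN, which encodes the low-affinity EGFR ligand epigen, had a fitted change below 0, whereas AREG, EREG and BTC had one above 0. It fell from 21.1 and 18.4 CPM in shNC to 16.01 and 14.9 CPM in sh812 (log2 fold change -0.35, SE 0.11, adjusted p = 0.0449 in edgeR). The groups did not overlap. The call was near the threshold, and it was lost with DESeq2 (adjusted p = 0.14), without shNC replicate 1 (0.253), without sh812 replicate 1 (0.148) and without sh812 replicate 2 (0.296). On the housekeeping scale the value was -0.55.

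TGFA encodes transforming growth factor alpha, the EGFR ligand first found in transformed cells. It is a minus-strand gene on chromosome 2 (70447280 to 70554193). TGFA had 112 and 118 CPM in shNC and 144 and 142 CPM in sh812. The replicates were close together in both groups, and the groups were well apart. The means were 115 ± 4.68 and 143 ± 1.19 CPM (SD, n = 2), and the log2 fold change was 0.31 (SE 0.06, 95% interval 1.14-fold to 1.36-fold, adjusted p = 0.00191 in edgeR). Without sh812 replicate 1 the value was 0.31 and the adjusted p was 0.0551. Of the 5 housekeeping genes whose scale gave TGFA 0.12, ACTB, GAPDH and RPLP0 were themselves called higher in sh812 with TMM.

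HBEGF encodes heparin-binding EGF-like growth factor and lies on chromosome 5 from 140332843 to 140346631, minus strand. It had 103 and 109 CPM in shNC and 99.2 and 101 CPM in sh812. The sh812 libraries lay just under the shNC libraries. The log2 fold change was -0.08 (SE 0.06, adjusted p = 0.484 in edgeR), and the 95% interval from 0.862-fold to 1.04-fold leaves out a rise of the size fitted for TGFA.

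NRG1, the neuregulin gene on chromosome 8, had 0 counts in both shNC libraries and 4 in each sh812 library. A count of 0 allows up to 3 counts, which is 0.0791 and 0.0949 CPM in the 2 shNC libraries and covers counting error only. If a pair counts as 2, which the sources used here do not settle, that limit would be higher, so no fold is given. In a fit with no low-count filter the adjusted p was 0.491 in edgeR. At this depth the transcript was close to undetected in both groups.

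**Figure D1:**
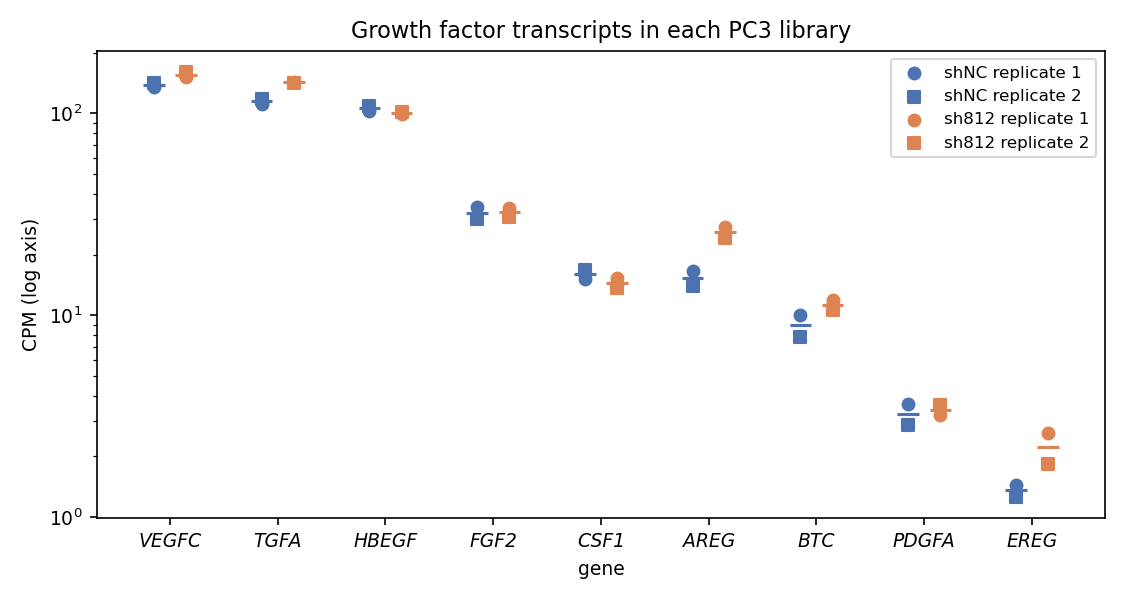
Level of the 9 growth factor genes that passed the low-count filter, in CPM on a log axis, with 1 point per library and a bar at the group mean. AREG at 14.0 to 16.6 CPM in shNC and 24.2 to 27.3 CPM in sh812 and TGFA at 112 to 118 CPM and 142 to 144 CPM do not overlap between groups, while FGF2, PDGFA and CSF1 do.

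The listed EGFR ligands differed widely in abundance. Per kilobase of merged exons, HBEGF had 34.2 and 36.1 CPM per kb in shNC, TGFA 22.5 and 23.8, AREG 10.1 and 8.48, BTC 3.56 and 2.77, and EREG 0.254 and 0.221. This order held in all 4 libraries, and no neighbours in it overlapped within a group. EPGN, which is not among the 10 growth factors, had 11.6 and 10.1 CPM per kb in shNC and 8.83 and 8.24 in sh812, so it stood just above AREG in shNC and below it in sh812. The sum over the 6 listed EGF-family genes, without EPGN, was 70.6 and 71.3 CPM per kb in shNC and 83.1 and 80.9 in sh812, a ratio of 1.16. That ratio was 1.12 with library size alone and 1.01 with the housekeeping genes as the scale. With EPGN added to the sum, a choice made after seeing the data, the ratio was 1.11 with TMM.

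The makeup of this sum of 6 genes does not depend on the scaling between libraries. HBEGF supplied 48.5% and 50.5% of it in shNC and 39.6% and 41.4% in sh812. AREG supplied 14.3% and 11.9% in shNC and 19.96% and 18.1% in sh812. TGFA moved from 31.9% and 33.4% to 34.8% and 35.3%. The groups did not overlap for any of these 3 shares, and the exact two-sided permutation p was 0.333 for each, the smallest that 2 against 2 libraries allow. BTC (3.89% to 5.04% in shNC) overlapped between groups. With EPGN in the sum, AREG supplied 12.3% and 10.4% in shNC and 18.04% and 16.5% in sh812, HBEGF 41.6% and 44.2% against 35.8% and 37.6%, and EPGN 14.2% and 12.4% against 9.61% and 9.25%.

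**Figure D2:**
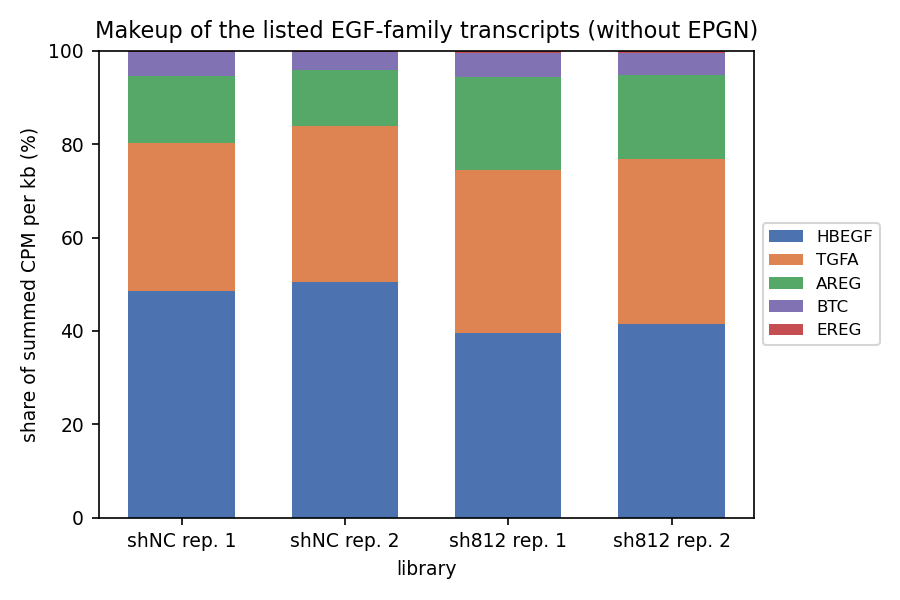
Share of each listed EGF-family ligand in the summed CPM per kb of these genes in each library, in percent and without EPGN, as stacked bars with 1 bar per library. The HBEGF share is 48.5% and 50.5% in shNC and 39.6% and 41.4% in sh812, and the AREG share is 14.3% and 11.9% against 19.96% and 18.1%. NRG1 is too scarce to draw.

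VEGFC encodes the lymphatic growth factor VEGF-C and had the highest level per kb of the 10 genes. It is a minus-strand gene on chromosome 4 (176683538 to 176792727). It had 135 and 142 CPM in shNC and 151 and 160 CPM in sh812. The groups did not overlap, but the gap was of the order of the spread within them. The log2 fold change was 0.17 (SE 0.06, 95% interval 1.03-fold to 1.23-fold), with an adjusted p of 0.0815 in edgeR, and it was -0.02 with the housekeeping genes as the scale. Without shNC replicate 2 the value was 0.21 and the adjusted p was 0.00414.

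FGF2 encodes basic fibroblast growth factor, which is stored on heparan sulfate. It showed 34.3 and 30.0 CPM in shNC against 33.9 and 30.7 CPM in sh812, so the groups coincided. Its log2 fold change was 0.0036 (SE 0.09), the 95% interval was 0.876-fold to 1.15-fold, and the adjusted p was 0.990 in edgeR. Exons of NUDT6 overlap it on the opposite strand, and reads of the 2 genes cannot be told apart without the strand setting. The same limit applies to the called genes EGFR, NRP2, ETV4, DUSP6, KRT18 and GAPDH, whose exons are also overlapped on the opposite strand.

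CSF1, the gene of macrophage colony-stimulating factor, lies on chromosome 1. It had 15.1 and 16.8 CPM in shNC and 15.3 and 13.6 CPM in sh812, with overlapping groups (log2 fold change -0.14, SE 0.12, 95% interval 0.765-fold to 1.08-fold, adjusted p = 0.516 in edgeR). PDGFA, the A chain of platelet-derived growth factor, lies on chromosome 7. It had 3.64 and 2.88 CPM in shNC and 3.19 and 3.60 CPM in sh812. The groups overlapped, and the interval from 0.750-fold to 1.44-fold is wide (log2 fold change 0.06, SE 0.23, adjusted p = 0.919 in edgeR). Of the 9 genes tested, 5 had both sh812 libraries above both shNC libraries and 1 had both below, so that 6 did not overlap. Over all genes tested, 26.2% were above, 27.4% below and 53.6% did not overlap.

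Per kb, the 10 genes ordered as VEGFC, HBEGF, TGFA, AREG, FGF2, BTC, CSF1, PDGFA, EREG and NRG1 by their mean over the 4 libraries. BTC and CSF1 overlapped in shNC, at 2.77 to 3.56 and 2.78 to 3.10 CPM per kb, and were apart in sh812. The other neighbours were apart in both groups.

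METTL3 and its partners prefer the sequence GGACT in messenger RNA, often near the stop codon. The letters were counted on the sense strand of 1 coding transcript per gene. AREG held none in 1240 bases. HBEGF had 1.68 per kb, CSF1 1.43 and VEGFC 0.969, and the other 6 tested genes were under the median of 0.932 per kb over 13222 tested genes. Within 150 bases on either side of the end of the stop codon, 3 of the 9 held a match, namely TGFA, HBEGF and CSF1, as did 30.7% of all such windows. The match nearest the stop is shown for these 3 with GGACT in capitals, since TGFA was called and HBEGF and CSF1 were not.
TGFA: ggccaggtGGACTgtggcaga
HBEGF: tcggctggGGACTgctacctc
CSF1: gcctgccaGGACTggaccaga
The match began 28 bases after the stop codon in TGFA, 29 bases after it in HBEGF and 130 bases after it in CSF1. The methylation of these positions was not measured here. The AU-rich letters TATTTAT, found in many short-lived messenger RNAs, were in the 3′ UTR of 6 of the 9 genes. They were in 34.7% of 12571 genes with a 3′ UTR of at least 100 bases. The rates per kb of 3′ UTR were 3.72 in AREG, 1.37 in HBEGF, 1.01 in EREG, 0.559 in TGFA, 0.464 in CSF1 and 0.171 in FGF2. These 3′ UTRs ran from 269 bases in AREG to 5840 in FGF2. A longer one has more room for a match, and the comparison was not adjusted for length.

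The receptors of the ligands were examined next. Of the 4 ERBB receptor genes, EGFR fell and 3 did not pass the threshold, where 10.8% of all genes tested were called. EGFR had 179 and 168 CPM in shNC and 147 and 142 CPM in sh812, and the groups were apart. The log2 fold change was -0.26 (SE 0.06) at an adjusted p of 0.00668 in edgeR. Leaving out either sh812 library ended the call, with an adjusted p of 0.0802 when replicate 1 was left out and 0.164 when replicate 2 was. The housekeeping scale gave -0.46. ERBB2, the receptor without a ligand of its own, had a log2 fold change of -0.04 (adjusted p = 0.849 in edgeR), and ERBB3 one of -0.17 (adjusted p = 0.398 in edgeR). ERBB4 was scarce, with 15 counts in each shNC library and 35 and 24 in sh812.

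The receptors of VEGFC changed in opposite directions. FLT4, the main VEGF-C receptor of lymphatic endothelium, had 0 counts in all 4 libraries. KDR, the VEGF receptor of blood vessels, fell from 18.9 and 17.9 CPM in shNC to 11.1 and 11.7 CPM in sh812 (log2 fold change -0.69, SE 0.12, adjusted p = 0.000343 in edgeR). NRP2, a co-receptor for VEGF-C, rose from 47.3 and 50.5 CPM to 70.3 and 69.9 CPM (log2 fold change 0.52, SE 0.07, adjusted p = 4.29e-05 in edgeR). Neither gene's groups overlapped, and NRP2 had 0.33 on the housekeeping scale.

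The other receptors gave no call. FGFR1, at 68.2 to 72.0 CPM over the libraries, had a log2 fold change of 0.01 (adjusted p = 0.964 in edgeR), and FGFR4 one of -0.09 (adjusted p = 0.577 in edgeR). FGFR2 had 2 counts in 1 library and FGFR3 from 12 to 18. The receptor for CSF1, CSF1R, had 10 to 29 counts, PDGFRA 28 to 43 and PDGFRB 16 to 44. The heparan sulfate carriers SDC1, SDC4 and GPC1 were well expressed, with log2 fold changes of 0.10, -0.14 and -0.14. In all, 11 of 13 genes in this list were tested, and 1 was called higher and 1 lower, beside 10.8% called of all genes tested. The median log2 fold change was -0.14.

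**Figure D3:**
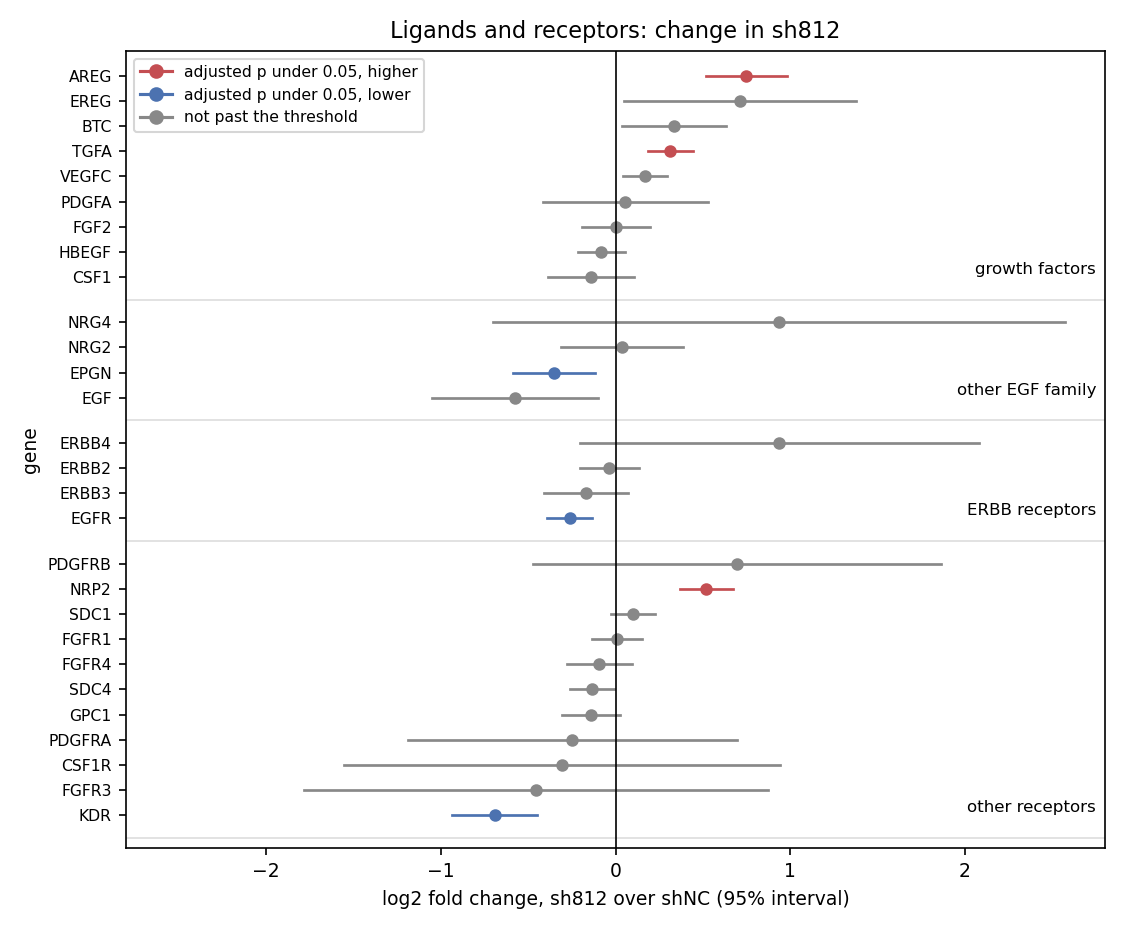
Log2 fold change of sh812 over shNC with its 95% interval for each tested ligand and receptor gene, grouped by role, with colour for the call in edgeR. AREG (0.75), TGFA (0.31) and NRP2 (0.52) lie to the right of 0, while EGFR (-0.26), EPGN (-0.35) and KDR (-0.69) lie to the left, and scarce genes such as NRG4 and ERBB4 have wide intervals.

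Among the other EGF-family genes, EPGN (above) was the most abundant. EGF itself had 136 and 132 counts in shNC and 90 and 94 in sh812 (log2 fold change -0.58, SE 0.23, adjusted p = 0.111 in edgeR). NRG2 had a log2 fold change of 0.04, NRG4 had 4 to 22 counts, and NRG3 had 0 counts in shNC and 2 in each sh812 library. Of the 5 genes, 4 were tested and EPGN was called, beside 10.8% of all genes tested.

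Among 8 genes for release of the ligands, 1 was called, beside 10.8% of all genes tested. ADAM12, a protease that can cleave HBEGF, had 22.2 and 20.9 CPM in shNC and 15.5 and 15.4 CPM in sh812 (log2 fold change -0.48, SE 0.11, adjusted p = 0.00510 in edgeR, and 0.0539 without sh812 replicate 1). ADAM17, the main sheddase of AREG and TGFA, had a log2 fold change of -0.17 (adjusted p = 0.198 in edgeR), and ADAM10, the sheddase of BTC and EGF, one of -0.09 (adjusted p = 0.471 in edgeR). The median of the 8 was -0.15. None of the 8 adaptor genes of EGFR (median -0.11) and none of its 10 negative regulators (median -0.10) was called in edgeR. In each list 3 genes had an unadjusted p under 0.05. Such values were common, since over all 16802 genes tested the p-value at rank 4143 was 0.0496 in edgeR. DESeq2 and limma-voom called 0 genes in both lists.

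The list of ligands related to the non-EGF factors also holds FGFBP1, which is not a ligand. The list gave 3 calls among 11 tested of 15, beside 10.8% called of all genes tested. FGFBP1, a carrier that frees FGF2 from the matrix, rose from 12.4 and 14.1 CPM to 19.8 CPM in both sh812 libraries (log2 fold change 0.58, SE 0.11, adjusted p = 0.00167 in edgeR). FGF5 fell from 42.0 and 37.4 CPM to 29.5 and 26.4 CPM (log2 fold change -0.51, SE 0.09, adjusted p = 0.000787 in edgeR). CSF3, the granulocyte colony-stimulating factor gene, fell from 142 and 140 CPM to 109 and 118 CPM (log2 fold change -0.31, SE 0.06, adjusted p = 0.00212 in edgeR, and 0.147 without sh812 replicate 1). CSF3 had -0.51 on the housekeeping scale.

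Genes that EGFR and ERK signalling are known to induce went both ways. Of 13 tested, 3 were called higher and 2 lower, beside 10.8% called of all genes tested, with a median log2 fold change of 0.04. MYC, a growth regulator, rose from 167 and 166 CPM to 216 and 223 CPM (log2 fold change 0.40, SE 0.06, adjusted p = 7.70e-05 in edgeR). DUSP6, a phosphatase that shuts off ERK, rose by 0.30 (adjusted p = 0.00837 in edgeR), and by 0.19 with an adjusted p of 0.328 without sh812 replicate 2. SPRY4, an inhibitor of receptor tyrosine kinase signalling, fell from 75.8 and 75.5 CPM to 50.9 and 52.6 CPM (log2 fold change -0.55, SE 0.07, adjusted p = 1.44e-05 in edgeR). The related factors ETV4 and ETV5 differed in direction, ETV4 by 0.20 on the log2 scale and ETV5 by -0.23 (adjusted p = 0.0351 and 0.0236 in edgeR). Both lost the call without either sh812 library, with an adjusted p of 0.217 and 0.347 for ETV4 and 0.200 and 0.268 for ETV5. ETV4 also lost it without shNC replicate 1 (0.0777), with library size alone (0.0894) and with the length trend removed (0.0532). On the housekeeping scale, ETV4 had 0.0091, DUSP6 0.11, MYC 0.20 and ETV5 -0.42.

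**Figure D4:**
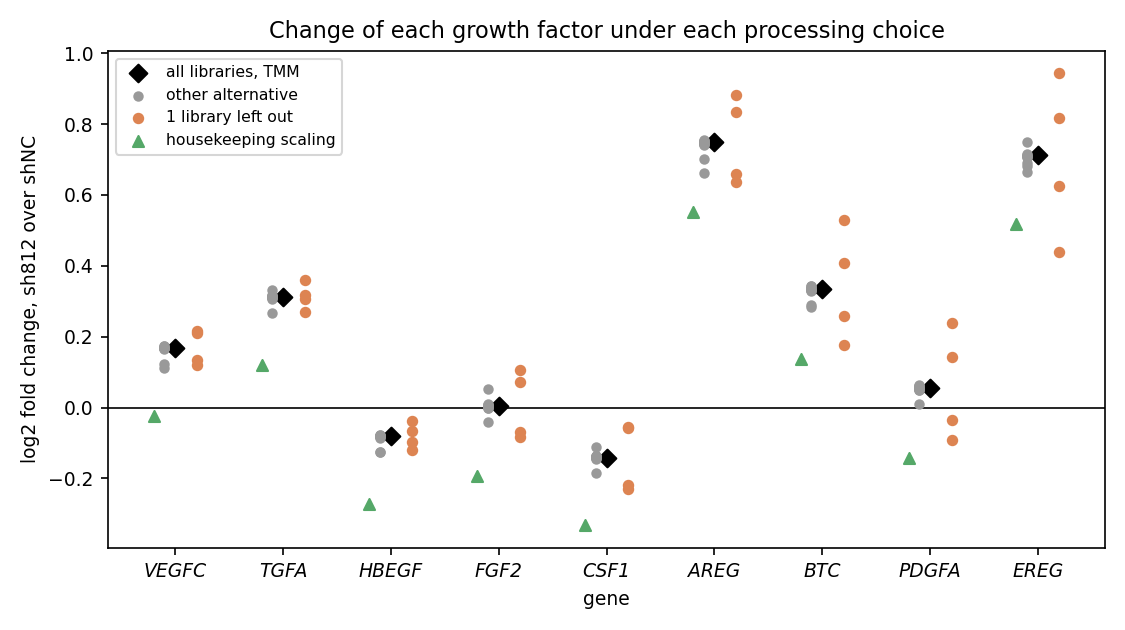
Log2 fold change of each tested growth factor under each processing choice, with symbols for the kind of choice. AREG stays between 0.55 and 0.88 and TGFA between 0.12 and 0.36, while VEGFC, FGF2 and PDGFA have values on both sides of 0.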

How the data were processed

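Poly(A) RNA of 4 PC3 libraries was compared, 2 labelled shNC and 2 labelled sh812. The deposited table holds raw whole-number counts per gene, not normalized, for 60544 genes. The submitters' processing notes name fastp, STAR 2.7.1a, featureCounts and DESeq2 with hg38, in no order. The annotation release, the strand setting and the counted unit (single reads or pairs) are not given in the sources used here. Of the count values from 1 to 20, 69.5% to 69.9% in each library were even, and the reason was not tested. All 4 value columns were used.

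The whole table was fitted with edgeR 4.0.16 in R 4.3.3 (filterByExpr, TMM, glmQLFit, glmQLFTest, no covariate), with Benjamini-Hochberg adjustment over the genes kept and a threshold of 0.05. The standard error (SE) came from the F statistic, and 95% intervals from it. CPM used TMM-adjusted library sizes. Levels per kilobase used the merged exons of GENCODE 29 (GRCh38). The named genes were METTL3, the 10 growth factors, their receptors and the called genes of lists in the same pathways. The growth factors and the lists were chosen with earlier results of these data known. A gene that this rule selects is not reported here. Alternatives covered 3 other scalings in edgeR, 2 filters, DESeq2 1.42.0, limma-voom (limma 3.58.1), a replicate block, a transcript length correction (lowess span 0.3), a prior count of 2 in place of 0.125, 5 housekeeping genes as the scale, and each library left out. The fits were tested on simulated counts. Motif counts used 1 coding transcript a gene from GENCODE 29, and promoters came from RefSeq (GRCh38.p14).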

Additional observations from a re-analysis of the deposited data

How the results depend on the processing

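AREG passed the threshold in all 9 alternatives with a new test on 4 libraries (log2 fold change 0.66 to 0.76, adjusted p from 1.52e-08 to 0.000476), and so did TGFA (0.27 to 0.33, adjusted p from 0.000143 to 0.00656). EREG, BTC, HBEGF, VEGFC, CSF1, FGF2 and PDGFA passed in none of theirs. EREG had no adjusted p in DESeq2, and NRG1 could be fitted only without the filter. FGF2 changed sign with library size alone (-0.0421) and with a mean CPM of at least 1 (-0.0021). With the 5 housekeeping genes as the scale, values with no test were -2.62 (METTL3), 0.551 (AREG), -0.273 (HBEGF), 0.12 (TGFA), 0.136 (BTC), -0.194 (FGF2), -0.0234 (VEGFC) and -0.332 (CSF1); the median of all genes was then -0.20. The cause was not tested. Each of the 14 other called genes also moved by more than its SE on that scale, from 0.40 for the highest to -0.89 for the lowest. With library size alone, 561 genes were called higher and 1328 lower (29.7% higher against 50.1%). Taking all lengths as 1, the AREG share differed by 2.91 points in place of 5.96, that of HBEGF by -7.5 in place of -8.98 and that of TGFA by 3.94 in place of 2.45. With EPGN added to the sum, chosen after seeing the data, that of HBEGF differed by -6.23.

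Leaving out 1 library makes 1 group a lone sample, assumed to vary like the other group. The count of called genes then ran from 587 without sh812 replicate 1 (682 without sh812 replicate 2) to 3252 without shNC replicate 2, against 1822, and 1 to 3 of the 9 growth factors were called. The values ran from 0.64 to 0.88 (AREG), 0.271 to 0.36 (TGFA, 0.305 without sh812 replicate 1, no longer past the threshold), 0.44 to 0.94 (EREG), 0.176 to 0.529 (BTC), 0.121 to 0.215 (VEGFC, 0.209 without shNC replicate 2, past the threshold), -0.0822 to 0.105 (FGF2, -0.0678 without sh812 replicate 1) and -0.0927 to 0.24 (PDGFA, -0.0359 without sh812 replicate 2). The labels number replicates in both groups without tying the numbers to a day or culture, and deviations of same-numbered libraries correlated at 0.0164 across genes. With the replicate block, 2001 genes were called and AREG had 0.753 (adjusted p = 4.13e-06); no growth factor changed its call.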
